A study of Mus musculus with 75 samples.

Results

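Chromosome folding was compared between pro-metaphase, when mouse G1E-ER4 cells are arrested in mitosis, and ana/telophase, the first step out of it. Domain, loop and stripe lists from Hi-C, which counts contacts between pieces of the genome, were matched between these stages. A domain boundary was kept if the other stage had one within 20 kb, a domain if both its ends did for 1 domain of the other stage, a loop if both its anchors lay within 20 kb of those of 1 loop, and a stripe if its anchor lay within 20 kb of a stripe anchor of the same direction. Features of pro-metaphase without a match are called lost, and those of ana/telophase without a match gained. The lists of these stages hold 20607 of the 122277 boundaries, domains, loops and stripes listed over all 5 stages of the study.

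The G1E-ER4 line descends from G1E proerythroblasts of strain 129, which lack the erythroid transcription factor GATA1, and was used uninduced. Nocodazole, which blocks the spindle, was given at 200 ng/ml for 7 to 8.5 h to arrest the cells. Pro-metaphase cells were sorted at 0 min and ana/telophase cells at 25 min after its removal. Every group sorted by stage has thus been through the drug arrest and comes from 1 cell line. CTCF and Rad21 peaks of asynchronous cells, for which no arrest or release time is listed, served only to check how the results depend on the processing. Each stage had 2 Hi-C libraries made from 5000000 sorted cells per experiment, of 75 samples in the series. For CTCF there were 3 pro-metaphase and 2 ana/telophase ChIP-seq samples, and for Rad21 there were 2 of each stage.

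Replicates are pooled in every list. Without a spread between replicates, no difference between the stages was tested. Values in parentheses are exact 95% binomial intervals for shares and order-statistic intervals for medians. They cover counting error only, and neighbouring features are not independent. The number of reads behind each list is unknown. Fewer reads can give fewer calls, and the part of depth in the gains and losses was not tested. Positions are those of build mm9 and count from 1.

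Cohesin, a ring complex that includes Rad21, extrudes chromatin into loops until it meets CTCF bound to DNA. Domains are stretches that contact themselves more than their surroundings, loops are focal contacts between a pair of anchors, and stripes are lines of contact that run from 1 anchor along the chromosome. Cohesin leaves chromosome arms as cells enter mitosis, and domains and loops are largely lost there. The peak lists at hand held 11604 CTCF and 596 Rad21 peaks in pro-metaphase and 33127 and 7995 in ana/telophase.

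In the full lists, loops and stripes of ana/telophase had a larger gained share than boundaries, an order that for loops turned with the length of the list. Of the 7414 ana/telophase boundaries, 4876 were gained, or 65.8% (64.7 to 66.8), and 2538 were kept. Of the 5531 ana/telophase domains, 4581 were gained, or 82.8% (81.8 to 83.8). Of the 908 ana/telophase loops, 824 were gained, or 90.7% (88.7 to 92.6), and of the 307 stripes 283 were, or 92.2% (88.6 to 94.9). Losses ran in another order: 10 of 84 pro-metaphase loops were lost, or 11.9% (5.86 to 20.8), against 15 of 39 stripes, 1613 of 3815 boundaries or 42.3% (40.7 to 43.9), and 1579 of 2509 domains or 62.9% (61.0 to 64.8). When the ana/telophase list was reduced to the 84 loops of lowest p-value, an alternative chosen after seeing the data, 45.2% of ana/telophase loops were gained, a smaller share than for boundaries. With that list 57.1% of pro-metaphase loops were kept in place of 88.1%. No list of equal length was made for boundaries, domains or stripes.

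**Figure D1:**
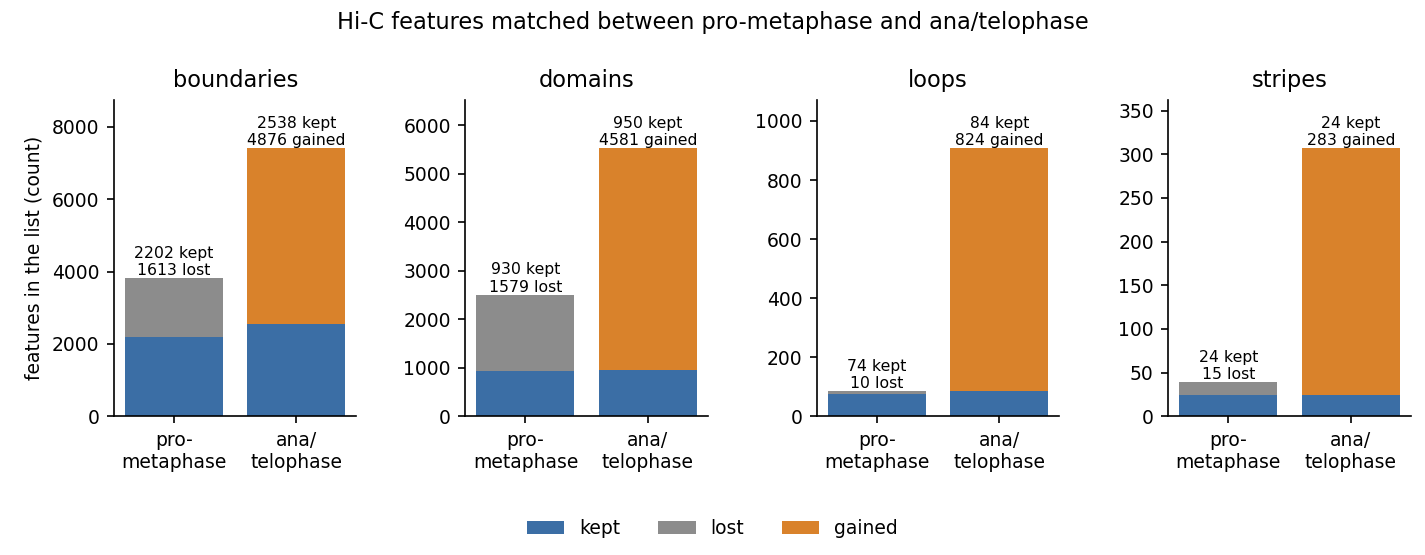
Numbers of boundaries, domains, loops and stripes in the pro-metaphase and ana/telophase lists (counts, 1 pooled list per stage, each panel on its own scale starting at 0). Blue is kept, grey is lost and orange is gained; the gained part is the larger one in every ana/telophase bar, and the lost part is the smaller one for loops, with 10 of 84.

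Kept boundaries were matched well above the level of positions taken at regular steps. Every 10 kb edge between the first and last domain end of each chromosome, 245402 positions in all, gives the background. A pro-metaphase boundary lay within 20 kb of 7.00% of these positions and an ana/telophase boundary within 20 kb of 12.3%, against 34.2% of ana/telophase and 57.7% of pro-metaphase boundaries with a match. Of the 2538 kept ana/telophase boundaries, 957 fell on the same 10 kb edge as in pro-metaphase, 1026 were 10 kb away and 555 were 20 kb away. A boundary that serves as the end of 1 domain and the start of another was seen in 35.9% of kept boundaries (34.0 to 37.8), 26.9% of gained ones (25.6 to 28.1) and 17.9% of lost ones (16.1 to 19.9). Starts and ends were gained in nearly equal number, 1742 as a start alone and 1824 as an end alone.

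Gained boundaries lay inside a pro-metaphase domain slightly less often than the grid. Inside lay 844 of 4876, or 17.3% (16.3 to 18.4), against 19.8% of grid positions over 20 kb from a pro-metaphase boundary. The pro-metaphase domain with the most gained boundaries inside it was chr5:11560001-14700000, which spanned 3140 kb, held 28 of them and was itself lost. Lost boundaries were absorbed more often than the grid: 853 of 1613 lay inside an ana/telophase domain, or 52.9% (50.4 to 55.3), against 42.5% of grid positions over 20 kb from an ana/telophase boundary.

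CTCF and Rad21 were found most often at kept, less often at gained and least often at lost boundaries. A CTCF peak of ana/telophase lay within 20 kb of 67.9% of kept boundaries (66.1 to 69.7), 55.4% of gained ones (54.0 to 56.8) and 43.5% of lost ones (41.0 to 45.9), with 31.1% over the grid. CTCF peaks of pro-metaphase gave 41.9%, 31.9% and 20.1% in the same order, with 14.0% over the grid. The intervals of the 3 classes did not overlap for either stage. Rad21 of ana/telophase lay near 34.5% of kept boundaries (32.7 to 36.4), 24.2% of gained ones (23.0 to 25.4) and 18.0% of lost ones (16.1 to 19.9), with 10.5% over the grid. The pro-metaphase Rad21 list, at 596 peaks, reached 4.06% (3.32 to 4.90), 2.48% (2.06 to 2.96) and 1.86% (1.26 to 2.65), where gained and lost overlapped, with 0.906% over the grid.

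Rad21 mostly came with CTCF, at boundaries and over the grid. Both proteins of ana/telophase lay within 20 kb of 861 kept boundaries, or 33.9% (32.1 to 35.8), of 1147 gained ones, or 23.5% (22.3 to 24.7), and of 271 lost ones, or 16.8% (15.0 to 18.7), with 9.52% over the grid. Rad21 without CTCF was near 15 of 876 kept, 31 of 1178 gained and 19 of 290 lost boundaries with Rad21, and near 2501 of 25861 such grid positions. Neither protein was near 31.5% of kept, 44.0% of gained and 55.4% of lost boundaries, so 2144 gained boundaries appeared without a peak of either protein within 20 kb. Where CTCF was near in ana/telophase, the median of the strongest fold enrichment, the authors' own peak value, was 32.7 at kept boundaries (31.6 to 33.7), 29.6 at gained ones (28.7 to 30.3) and 25.6 at lost ones (23.9 to 27.2).

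**Figure D2:**
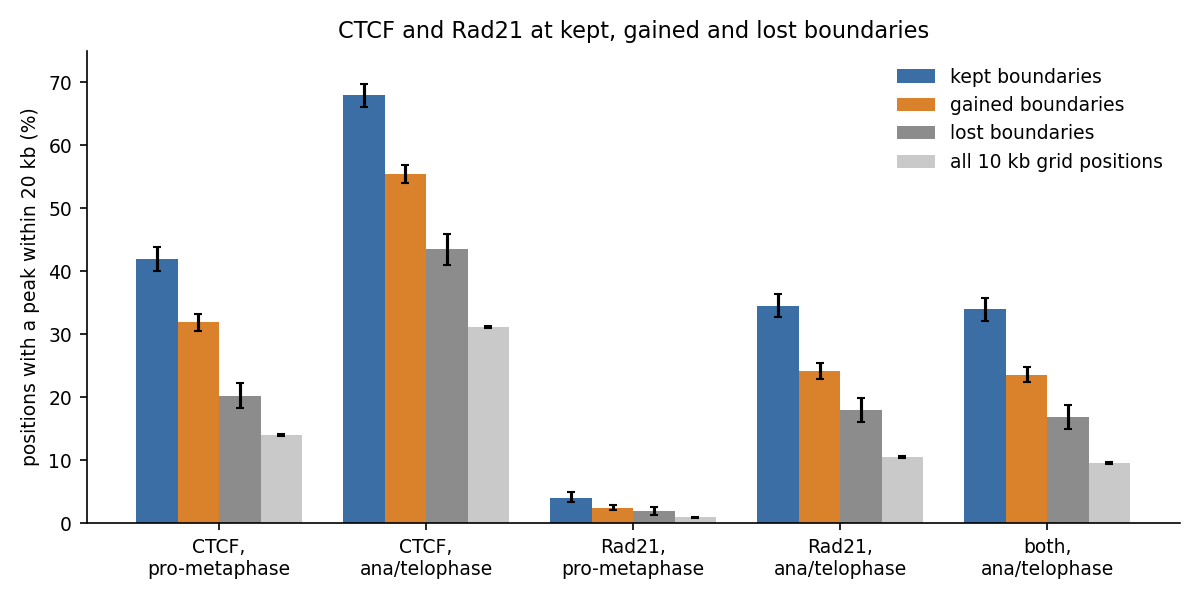
Share of kept, gained and lost boundaries and of all 10 kb grid positions with a CTCF or Rad21 peak within 20 kb (%, exact 95% intervals as bars; both means CTCF and Rad21 of ana/telophase). In each group of bars kept is the highest, gained next, lost next and the grid lowest, with CTCF of ana/telophase from 67.9% down to 31.1%.

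As shares of all boundaries, the classes differed more in CTCF already bound in mitosis than in CTCF of ana/telophase alone. A CTCF peak of ana/telophase with none of pro-metaphase within 20 kb was near 26.0% of kept (24.3 to 27.8), 23.5% of gained (22.3 to 24.7) and 23.4% of lost boundaries (21.3 to 25.5), and these intervals overlapped. With CTCF of both stages the shares were 41.9%, 31.9% and 20.1%. A boundary with pro-metaphase CTCF cannot count as one with CTCF of ana/telophase alone, which lowers that share most for kept boundaries. CTCF of ana/telophase alone was near 661 kept boundaries, and 813 had CTCF in neither stage. For gained boundaries these counts were 1146 and 2175, and for lost ones 377 and 911. Among boundaries without pro-metaphase CTCF, the classes thus differed too, in the order kept, gained, lost. Rad21 of ana/telophase followed the CTCF held through mitosis: among gained boundaries it was near 56.7% of those with pro-metaphase CTCF (54.2 to 59.2) and 23.1% of those with CTCF of ana/telophase alone (20.7 to 25.7). Kept boundaries gave 64.9% and 25.7% for the same groups, and lost ones 56.9% and 22.8%. Over the grid the values were 48.6% and 15.9%, so the larger share with pro-metaphase CTCF is not particular to boundaries.

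CTCF peaks were then read outward, for a pair of kinds that differ both in pro-metaphase CTCF and in Rad21. The part of each trait is not separated here. Of the 4537 ana/telophase CTCF peaks that overlapped a pro-metaphase CTCF peak and an ana/telophase Rad21 peak, 12.9% lay within 20 kb of a kept boundary (11.9 to 13.9) and 17.3% of a gained one (16.3 to 18.5). Of the 19164 peaks new in ana/telophase and without Rad21, 7.76% (7.39 to 8.15) and 11.6% (11.2 to 12.1) did. Grid positions gave 4.13% and 8.45%. Most CTCF peaks of each kind were thus not near a boundary, and the kinds also differed in strength, with a median fold enrichment of 40.7 for the first and 13.3 for the second.

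The strongest co-bound CTCF peak near a kept boundary lay at chr11:69392699-69393213, with a fold enrichment of 70.1 in ana/telophase. It was near a pair of kept boundaries, at 69380000 and 69390000, which were found in early G1 and not in mid or late G1. The next lay at chr11:100161594-100162109, with a fold of 69.4, near a boundary at 100150000 that was present in all 5 stages.

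Near gained boundaries the strongest were at chr19:41145814-41146435 with a fold of 73.2, at chr17:12231972-12232468 with a fold of 65.6, and at chr19:47956878-47957445 with a fold of 63.4. Their boundaries, at 41150000, 12230000 and 47950000, appeared in ana/telophase although a CTCF peak was already present within 20 kb in pro-metaphase at each. That on chromosome 17 had a pro-metaphase fold of 79.8 and was missing from the mid-G1 list, while those on chromosome 19 were in every later list. No pro-metaphase Rad21 peak lay within 20 kb of these 3 boundaries. They were chosen among boundaries with ana/telophase Rad21, whose folds there were 4.91, 13.1 and 6.93.

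Among lost boundaries the strongest pro-metaphase CTCF peaks had folds of 67.6, 63.9 and 61.1. Their positions were chr9:120342881-120343547, chr18:53904123-53904568 and chr15:99301365-99301961. These were chosen by CTCF alone. An ana/telophase CTCF peak lay near all 3, with folds of 53.8, 45.0 and 59.0, and an ana/telophase Rad21 peak near those on chromosomes 9 and 15, with folds of 8.77 and 7.22. The boundary on chromosome 9, at 120340000, was in no later list, that on chromosome 18, at 53890000, was found again in mid G1 alone, and that on chromosome 15, at 99320000, returned in early, mid and late G1.

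Later stages, sorted 60, 120 and 240 min after release, did not take part in the matching and show what became of each class. Their lists are longer and their libraries were made from 10000000 cells. In early G1 a boundary lay within 20 kb of 79.9% of kept boundaries (78.3 to 81.4), 67.4% of gained ones (66.0 to 68.7) and 27.1% of lost ones (24.9 to 29.3), with 17.7% over the grid. In late G1 the shares were 75.8%, 65.7% and 26.8%, with 20.2% over the grid. Lost boundaries lie by definition away from ana/telophase boundaries, and grid positions with the same distance gave 14.5% in late G1. All 3 later lists held 66.7% of kept (64.9 to 68.6), 52.7% of gained (51.3 to 54.1) and 13.1% of lost boundaries (11.5 to 14.8). No later list held 20.0% of gained and 56.8% of lost ones.

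Presence of CTCF and Rad21 in ana/telophase went with presence of the boundary later, more so for gained than for kept boundaries. Late G1 held 80.2% of gained boundaries with both proteins (77.8 to 82.5), 72.2% of those with CTCF alone (69.9 to 74.4) and 53.3% of those with neither (51.2 to 55.4). For kept boundaries the same shares were 81.6%, 77.1% and 68.1%. A gained boundary with both proteins was thus about as often present in late G1 as a kept one, with overlapping intervals (77.8 to 82.5 against 78.9 to 84.2), while with neither protein it was less often present (51.2 to 55.4 against 64.7 to 71.3). Grid positions with the same proteins, which include those at boundaries, gave 39.4%, 28.6% and 14.9%. Grid positions over 20 kb from an ana/telophase boundary gave 24.5%, 20.2% and 11.8%. A slope was thus also seen away from ana/telophase boundaries, narrower than over all grid positions. For lost boundaries the shares were 29.5%, 30.0% and 24.7%.

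**Figure D3:**
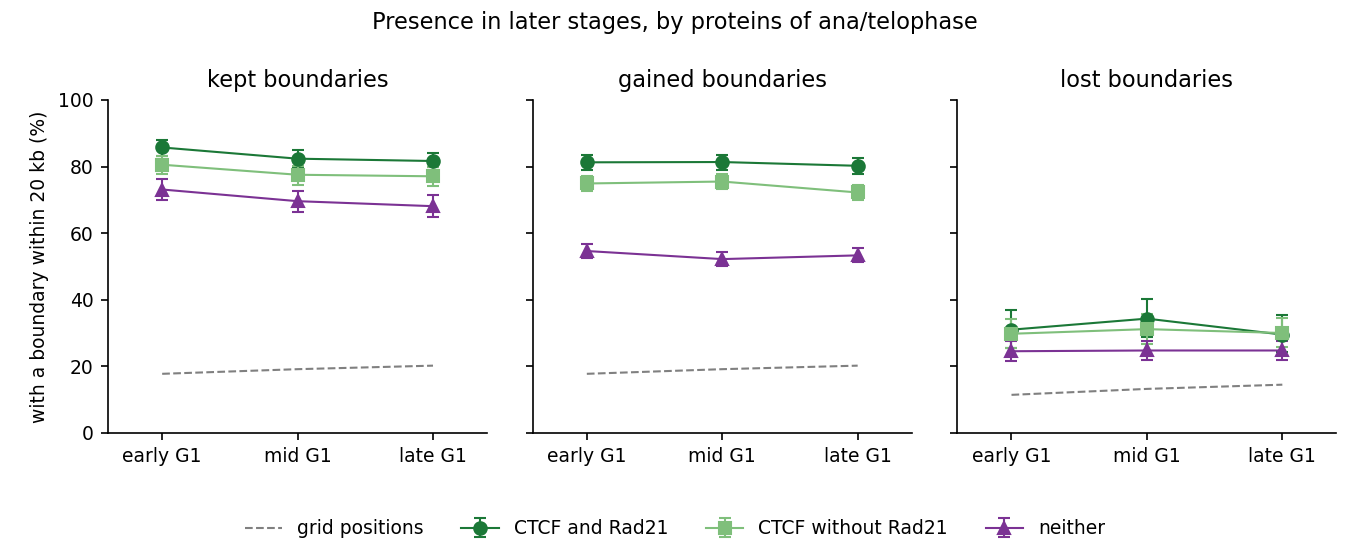
Share of kept, gained and lost boundaries with a boundary within 20 kb in early, mid and late G1 (%, exact 95% intervals), by CTCF and Rad21 of ana/telophase within 20 kb. The dashed line is the share of all grid positions, and in the lost panel that of positions over 20 kb from an ana/telophase boundary; gained boundaries with both proteins stay between 80.2% and 81.3%, and those with neither between 52.2% and 54.6%.

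The part of the genome in domains grew. Domain cover of the chromosomes rose from 573 Mb to 1164 Mb, or from 23.4% to 47.4% of the span between first and last domain end. Of gained domains, 59.3% overlapped no pro-metaphase domain (57.9 to 60.8), 23.9% enclosed at least 1 (22.7 to 25.2), 12.2% lay inside 1 (11.3 to 13.2) and 7.40% only crossed one. Since pro-metaphase domains covered 23.4% of the span, a share without overlap is not by itself a trait of gained domains. Overlaps of at most 20 kb were not counted, and a domain could both enclose and lie inside others. Gained domains mostly had new ends: 2581 had no end at a pro-metaphase boundary, 1696 had 1 and 304 joined a pair of known boundaries in a new way. Their median sizes were 270 kb (270 to 280), 320 kb (310 to 330) and 420 kb (400 to 450).

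Lost domains were small, and many lay inside larger domains of ana/telophase. Their median size was 220 kb (220 to 230), against 270 kb for kept ones (260 to 280) and 300 kb for gained ones (290 to 300). The shortest domains in either list were 160 kb. Of pro-metaphase domains under 200 kb, 76.0% were lost (72.5 to 79.3), against 59.1% at 200 to under 400 kb (56.6 to 61.6) 54.2% at 400 to under 800 kb (47.8 to 60.4) and 59.7% from 800 kb (50.3 to 68.6). Of lost domains, 48.8% lay inside a larger ana/telophase domain (46.3 to 51.3), 28.1% overlapped none and 19.3% enclosed at least 1. Lying inside was not particular to them, since 53.7% of kept pro-metaphase domains did too (50.4 to 56.9). Most kept an end: 898 of 1579 had 1 end at an ana/telophase boundary, 153 had both and 528 had none.

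Kept domains were the more nested ones in ana/telophase. A larger ana/telophase domain held 52.7% of kept domains (49.5 to 56.0) and 38.5% of gained ones (37.1 to 39.9). The gained share fell with depth, from 86.3% of outermost domains (85.0 to 87.4) to 79.6% at 1 level inside (77.4 to 81.7) and 74.9% at 2 or more (71.9 to 77.8). In pro-metaphase, 24.9% of the domains to be kept were nested (22.2 to 27.9), against 21.2% of those to be lost (19.2 to 23.3), and these intervals overlapped. Nesting went 5 levels deep in pro-metaphase and 6 in ana/telophase.

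Domain ends followed the boundaries. CTCF of ana/telophase lay within 20 kb of both ends of 53.7% of kept domains (50.5 to 56.9), 43.1% of gained ones (41.7 to 44.5) and 35.5% of lost ones (33.1 to 37.9). CTCF and Rad21 marked both ends of 12.9%, 10.4% and 7.09%. Late G1 held 49.2% of kept (45.9 to 52.4), 40.2% of gained (38.8 to 41.6) and 12.0% of lost domains (10.4 to 13.7), a lower share than for boundaries in each class.

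The longest kept domain lay at chr12:84430001-87280000, spanned 2850 kb, enclosed 15 pro-metaphase domains and was in no later list. The next were at chr13:59950001-62390000, found at every later stage, and at chr14:20340001-22630000, found in early G1 alone. The longest gained domain, at chr4:60070001-64540000, spanned 4470 kb and enclosed 5 pro-metaphase domains. The others were at chr14:43280001-47400000 and at chr10:122640001-126320000. Of these 3, that on chromosome 10 alone was found later, in all of the G1 lists. The 3 longest lost domains, of 4370, 3720 and 3570 kb on chromosomes 14, 10 and 12, enclosed 10, 5 and 2 ana/telophase domains and were in no later list.

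Kept and gained loops differed in their anchors. CTCF and Rad21 were at a smaller share of the anchors of kept loops than of gained ones. Of the 1648 anchors of gained loops, 70.3% overlapped a CTCF peak of ana/telophase (68.0 to 72.5), against 27.4% of the 168 anchors of kept loops (20.8 to 34.8) and 19.2% of all 20 kb windows on the grid; anchors had a median width of 20 kb in both classes. For Rad21 of ana/telophase the shares were 41.7% (39.4 to 44.2) and 10.1% (6.01 to 15.7), with 5.66% over the grid. For CTCF of pro-metaphase they were 42.3% (39.9 to 44.7) and 9.52% (5.54 to 15.0), with 7.83% over the grid. Kept loop anchors thus had pro-metaphase CTCF at a share whose interval includes the grid value, whereas boundaries kept over the same step had more CTCF than gained ones.

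Counted per loop, CTCF of ana/telophase was at both anchors of 447 of 824 gained loops, or 54.2% (50.8 to 57.7), at 1 anchor of 264 and at none of 113. Kept loops, 84 in ana/telophase, had it at both anchors in 13, at 1 in 20 and at none in 51. CTCF and Rad21 were at both anchors of 196 gained loops, or 23.8% (20.9 to 26.8), and of 3 kept ones, or 3.57% (0.743 to 10.1). Neither protein was at any anchor of 49 kept loops, or 58.3% (47.1 to 69.0), and of 112 gained ones, or 13.6% (11.3 to 16.1). With anchors widened by 10 kb on each side, chosen after seeing the data, the share of kept loops was 44.0%. Of the 447 gained loops with CTCF at both anchors, 189 had it at both already in pro-metaphase, 195 at 1 and 63 at none. In 42.3% of these (37.7 to 47.0) CTCF was thus at both anchors before a loop was called.

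Gained loops with CTCF at both anchors were longer. Their median size was 120 kb (110 to 130), against 90 kb with CTCF at 1 anchor (80 to 100) and 70 kb at none (60 to 80). The share with both proteins at both anchors rose from 8.51% under 60 kb (4.48 to 14.4) to 19.7% at 60 to under 100 kb (14.9 to 25.4) and 34.2% at 100 to under 200 kb (28.9 to 39.8), and was 23.1% at 200 to under 400 kb (16.0 to 31.7). CTCF at both anchors went from 28.4% to 49.6%, 64.8% and 64.5% over the same classes. Gained loops of 400 kb and more numbered 17.

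Loops seldom joined the ends of a listed domain, and many were too short to do so. The shortest ana/telophase domains were 160 kb, and an anchor had to lie within 20 kb of each end. Median sizes were 100 kb for gained and 110 kb for kept loops. The low shares below are thus in part set by loop size. Both anchors lay at the ends of 1 ana/telophase domain for 29 gained loops, or 3.52% (2.37 to 5.02), and for 0 of 84 kept ones (0 to 4.30). A domain of the same stage held 75.5% of gained (72.4 to 78.4) and 77.4% of kept loops (67.0 to 85.8), with 20 kb of slack allowed at each end. Ana/telophase domains covered 47.4% of the span. No share was made for pairs of grid positions at like distances, so how far these shares exceed the background was not tested.

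Kept loops were stronger by their contact ratio. The observed over expected contact, the authors' values, had a median of 6.54 in the 84 kept loops (4.99 to 7.88) and 3.23 in the 824 gained ones (3.15 to 3.32), at like median sizes of 110 kb (90 to 140) and 100 kb (100 to 110). Among gained loops the ratio was 3.34 with CTCF at both anchors (3.23 to 3.43), 3.12 at 1 (2.99 to 3.23) and 3.14 at none (2.86 to 3.42). The 74 kept pro-metaphase loops had a median ratio of 5.27 (4.58 to 6.56) in pro-metaphase, and their nearest matches one of 6.54 (5.00 to 7.81) in ana/telophase. The ratio was higher in ana/telophase for 50 of 74, or 67.6% (55.7 to 78.0), and the median of its change was 1.11-fold (1.02 to 1.23). Observed and expected values were each higher for 58 of 74, and 54 of 74 had 1 match alone. Some ana/telophase loops were the nearest match of more than 1 pro-metaphase loop. The 74 pairs are thus not all distinct, although the intervals treat them as such.

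**Figure D4:**
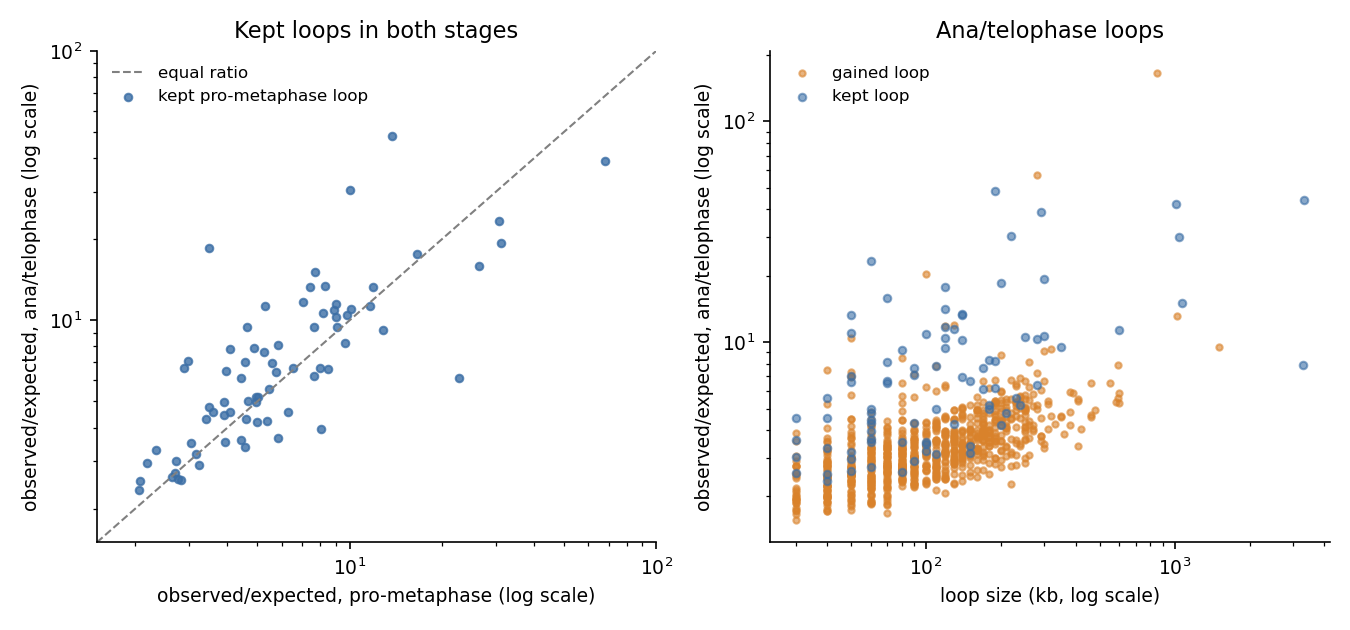
Observed over expected contact of loops (ratio, log scales). Left, the 74 kept pro-metaphase loops in pro-metaphase and in their nearest ana/telophase match, with 50 above the dashed line of equal ratio; right, all 908 ana/telophase loops by size (kb, log scale), where kept loops have a median ratio of 6.54 and gained ones 3.23.

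Gained loops with both proteins at both anchors reached ratios of up to 8.09. The highest joined 88510001 to 88530000 with 88760001 to 88780000 on chromosome 4, a span of 260 kb, with both anchors at ana/telophase boundaries. The others among the highest 5 were on chromosome 6 (chr6:136410001-136430000 with chr6:136470001-136510000, ratio 7.15), chromosome 15 (chr15:102790001-102830000 with chr15:102990001-103010000, ratio 6.74), chromosome 17 (chr17:45860001-45880000 with chr17:46160001-46180000, ratio 6.67) and chromosome 13 (chr13:21250001-21270000 with chr13:21800001-21820000, ratio 6.55). All 5 had CTCF at both anchors in pro-metaphase too, and Rad21 at neither. The loop on chromosome 6 was in no later list and the other 4 were in all of them.

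The longest gained loops had no Rad21 of ana/telophase at either anchor. A loop of 1510 kb, chr13:22130001-22140000 with chr13:23640001-23670000, had CTCF of ana/telophase at both anchors and a ratio of 9.54. The loop of 1020 kb, chr8:82200001-82230000 with chr8:83230001-83250000, had CTCF at 1 anchor and a ratio of 13.1. The loop of 850 kb, chr4:113090001-113120000 with chr4:113940001-113960000, had neither protein and a ratio of 166, with an observed value of 410 and an expected value of 2.48. The first 2 were in every later list, the last in late G1 alone.

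The 5 kept loops with the highest pro-metaphase ratio all had a lower one in ana/telophase, where they had not been chosen for it. On chromosome 17 the loop from 40020001 to 40060000 with 40330001 to 40350000 went from 68.2 to 38.9, and its observed value from 54.1 to 34.2. On chromosome 12 the loop from 116400001 to 116450000 with 116710001 to 116750000 went from 31.1 to 19.3. On chromosome 10 the ratios went from 30.7 to 23.3 for 117640001 to 117660000 with 117710001 to 117730000, and from 26.4 to 15.9 for 22190001 to 22210000 with 22290001 to 22310000. On chromosome 1 the loop from 175690001 to 175710000 with 175840001 to 175860000 went from 22.8 to 6.12, the smallest ratio of change among the 74. It had 3 matches, and the nearest one was also that of another pro-metaphase loop. None of the 5 had a CTCF or Rad21 peak of pro-metaphase at an anchor, as in 64 of the 74. Since 7.83% of 20 kb grid windows had CTCF of pro-metaphase, its absence is not by itself a trait of these loops. At these pro-metaphase anchors, CTCF of ana/telophase was present for 4 of the 5, and at both for that on chromosome 1. The loop at chr10:22190001-22210000 had Rad21 of ana/telophase at its downstream anchor too. At the anchors of the matched ana/telophase loops the picture differed. CTCF was at both anchors for chr10:22190001-22210000, at 1 for those on chromosomes 17 and 1, and at none for the others. All 5 were in every later list.

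The longest kept loops spanned 3300 kb on chromosome 12 (chr12:18290001-18310000 with chr12:21580001-21600000), 1070 kb on chromosome 1 (chr1:175190001-175210000 with chr1:176260001-176280000) and 600 kb on chromosome 12 (chr12:116410001-116430000 with chr12:117010001-117030000). Their ratios were 4.87, 7.70 and 11.7 in pro-metaphase and 7.88, 15.1 and 11.3 in ana/telophase. Pro-metaphase loops were gathered in places. After the values were seen, windows of 2 Mb were counted: 8 of the 84 loops lay on chromosome 1 between 175190001 and 176280000, and 7 on chromosome 12 in the windows from 114000001 to 118000000. All 15 were kept.

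Of the 10 lost loops, 9 had no CTCF and no Rad21 peak of pro-metaphase at an anchor, as did 64 of the 74 kept ones. Pro-metaphase CTCF was in 7.83% of 20 kb grid windows, so its absence is not by itself a trait of these loops. CTCF of ana/telophase was at an anchor of 4 of the 10 lost loops, at both in 2, and in 19.2% of single grid windows. In at least 1 later list were 9 of the 10. The loop of 2830 kb, chr3:28760001-28780000 with chr3:31580001-31600000, had a ratio of 72.6, and a pair of loops on chromosome 13 between 12670001 and 13460000 had ratios of 14.3 and 107. These last 2 share an anchor and were both found again in mid and late G1. One of 460 kb, chr4:143350001-143370000 with chr4:143820001-143840000, had a ratio of 16.5, and one of 240 kb, chr1:179790001-179820000 with chr1:180030001-180050000, a ratio of 5.96. The other 5, on chromosomes 2, 5, 8 and 19, spanned 30 to 70 kb with ratios from 2.28 upward, all under that of the 240 kb loop. The 1 not found later joined 82170001 to 82200000 with 82210001 to 82230000 on chromosome 8; its downstream anchor overlaps the upstream anchor of the 1020 kb loop gained there.

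Most loops of both classes were found again later. Late G1 held 83.1% of gained loops (80.4 to 85.6) and 86.9% of kept ones (77.8 to 93.3), and all 3 later lists held 71.7% and 81.0%. In late G1 this did not go with CTCF as it did for gained boundaries: 83.4% of gained loops with CTCF of ana/telophase at both anchors were found (79.7 to 86.8), as were 219 of 264 with it at 1 (77.9 to 87.3) and 82.3% with it at none (74.0 to 88.8). In early G1 it was 82.3% with CTCF at both anchors (78.5 to 85.8), 212 of 264 with it at 1 and 70.8% with it at none (61.5 to 79.0), lower without CTCF but with overlapping intervals.

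Stripes were few in pro-metaphase, 39, and 307 in ana/telophase, of which 283 were gained, 138 horizontal and 145 vertical. Length is that of the stripe body, which can start some way from the anchor. Gained stripes were shorter than kept ones in the ana/telophase list, with a median length of 210 kb (190 to 220) against 320 kb (210 to 520), with overlapping intervals. From the anchor to the far end of the body, the median was 460 kb in gained (440 to 470) and 615 kb in kept stripes (390 to 780). Over 400 kb long were 16 of 283 gained stripes, or 5.65% (3.27 to 9.02), and 10 of 24 kept ones, or 41.7% (22.1 to 63.4). Strength, the authors' ratio of observed to expected sum, had a median of 2.76 in gained (2.69 to 2.84) and 3.06 in kept stripes (2.70 to 3.52). In the 24 kept stripes its median had been 2.44 in pro-metaphase (2.25 to 2.87), and it was higher in ana/telophase in 20 of them, or 83.3% (62.6 to 95.3). Length had no common direction, with 14 longer, 9 shorter and 1 equal.

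Anchors of gained stripes overlapped CTCF and Rad21 peaks about as often as those of gained loops, at a smaller median width. CTCF of ana/telophase overlapped the anchor of 204 of 283 gained stripes, or 72.1% (66.5 to 77.2), and Rad21 that of 118, or 41.7% (35.9 to 47.7); both did at 117, or 41.3%. The 20 kb grid windows gave the 19.2% and 5.66% above, and stripe anchors had a median width of 10 kb, which is narrower. CTCF of pro-metaphase overlapped 119 gained anchors, or 42.0% (36.2 to 48.0). Of kept stripes, 15 of 24 had CTCF of ana/telophase, or 62.5% (40.6 to 81.2), and 12 of 24 had CTCF of pro-metaphase. At the anchors these stripes had in the pro-metaphase list, the counts were 13 and 9 of 24. Of 15 lost stripes, 2 had CTCF of pro-metaphase and 5 had CTCF of ana/telophase, with wide intervals (1.66 to 40.5% and 11.8 to 61.6%). An ana/telophase boundary lay within 20 kb of 53.4% of gained stripe anchors (47.4 to 59.3), and a loop anchor of ana/telophase of 30.0% (24.8 to 35.7). For kept stripes these shares were 50.0% (29.1 to 70.9) and 58.3% (36.6 to 77.9). For lost ones they were 46.7% (21.3 to 73.4) and 53.3% (26.6 to 78.7). Gained stripes thus had the lowest share with a loop anchor, with an interval that overlaps that of lost ones. Anchors of kept stripes had an upper quartile of width of 30 kb, against 10 kb for gained ones, and the shares were not adjusted for width. No grid share was made for loop anchors.

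**Figure D5:**
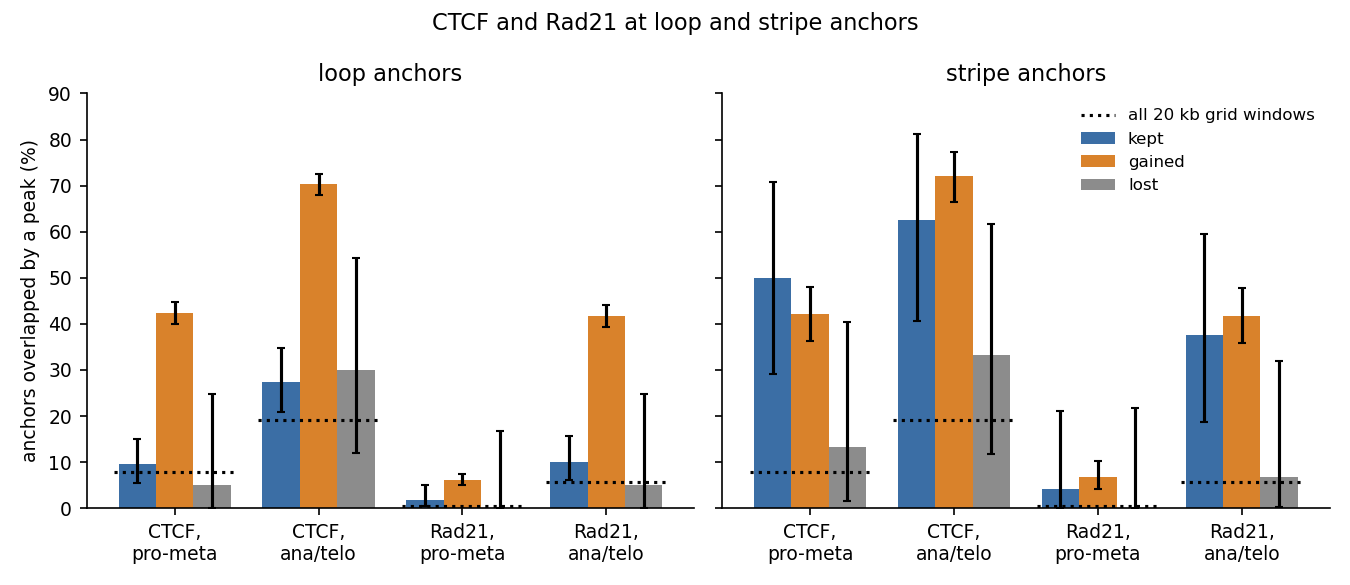
Share of loop anchors (left) and stripe anchors (right) overlapped by CTCF or Rad21 peaks of pro-metaphase (pro-meta) or ana/telophase (ana/telo) (%, exact 95% intervals), for kept, gained and lost features. Dotted lines give all 20 kb grid windows; CTCF of ana/telophase was at 70.3% of gained and 27.4% of kept loop anchors, and at 72.1% of gained and 62.5% of kept stripe anchors.

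The 3 strongest gained stripes were horizontal and had CTCF but no Rad21 of ana/telophase at the anchor. They had strengths of 8.40, 7.66 and 6.98 and anchors at chr1:16090001-16100000, chr4:46150001-46160000 and chr2:168780001-168790000. The longest gained stripe, on chromosome 3, had a body of 750 kb from 94430001 to 95180000 and its anchor at 94240001 to 94260000. The next were 640 kb on chromosome 1, with an anchor at 183760001 to 183780000 and neither protein, and 560 kb on chromosome 5, with an anchor at 135860001 to 135880000 and both. Among kept stripes the strongest had its anchor at 23830001 to 23840000 on chromosome 13, where strength went from 3.59 to 9.03 and neither protein overlapped the anchor in either stage. The next were on chromosome 9 (anchor 115210001 to 115220000, 2.84 to 5.39) and chromosome 10 (126940001 to 126970000 in ana/telophase, 2.65 to 4.31).

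The longest kept stripes lay on both sides of 1 place on chromosome 11. The horizontal one, with its ana/telophase anchor at 116600001 to 116620000, measured 1280 kb in pro-metaphase and 860 kb in ana/telophase. The vertical one, anchored at 116610001 to 116620000 in ana/telophase, went from 1530 kb to 840 kb. The third longest, on chromosome 7 with an anchor at 52950001 to 52980000, went the other way, from 350 kb to 580 kb. A stripe of the other direction within 20 kb was seen for 5 of 24 kept stripes and for 11 of 283 gained ones, or 20.8% (7.13 to 42.2) and 3.89% (1.96 to 6.85).

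The 3 strongest lost stripes had strengths of 4.28, 3.37 and 3.36 and anchors at chr15:38430001-38440000, chr1:26740001-26750000 and chr5:152290001-152300000. None had a peak of either protein in either stage at the anchor, and all 3 were found again at every later stage. The anchor on chromosome 1 also carried a vertical stripe that was kept, at 490 kb and then 550 kb, while its horizontal one of 590 kb was missing in ana/telophase. In all, 12 of 15 lost stripes were in late G1, or 80.0% (51.9 to 95.7), as were 265 of 283 gained ones, or 93.6% (90.1 to 96.2), and 16 of 24 kept ones, or 66.7% (44.7 to 84.4).

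Chromosomes differed in their gains. The gained share of boundaries was highest on chromosome 6, at 72.9% of 340 (67.9 to 77.6), and lowest on chromosome 19, at 55.8% of 197 (48.6 to 62.9). These chromosomes had 1.13 and 2.31 pro-metaphase boundaries per Mb and 1.77 and 2.05 gained ones per Mb, so they differed more in what was there before than in what was added. Gained loops were densest on chromosome 11, with 6.77 per 10 Mb, and sparsest on X, with 0.581, where 9 loops were gained and pro-metaphase had none. CTCF peaks of ana/telophase numbered 22.9 and 5.07 per Mb there. Chromosome 1 held 7.56% of the span, 8.04% of gained boundaries, 10.6% of gained loops, 17.7% of gained stripes (50 of 283) and 17 of 84 pro-metaphase loops, or 20.2%.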

How the data were processed

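In situ Hi-C and ChIP-seq for CTCF and Rad21 had been carried out on sorted cells, grouped here by assay, target and stage from the sample titles. Bowtie2 and HiC-Pro are named for Hi-C, and MACS2 2.1.0, Bowtie 0.12.7, bedtools 2.27.1 and SAMtools 1.7 for ChIP-seq, on mm9, per the submitters' processing notes. Callers of domains, loops and stripes: not given in the sources used here. Peak lists carry a deposited fold enrichment (a ratio) and a deposited −log10 q; replicates were merged and downsampled, per the peak names. Loop lists give a deposited p-value beside the observed and expected contact signal, and stripe lists sums whose deposited ratio is the strength, per the file headers. Domain lists give bins of 10 kb. Depth is unknown from these lists.

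Matches, overlaps of at least 1 bp and the grid of 10 kb edges were made in Python 3.11.15 (SciPy 1.17.1, pandas 2.3.3, NumPy 2.4.6), and drawn with Matplotlib 3.10.9. The interval functions passed 10 of 10 tests on simulated data, with bedtools 2.31.1 as reference. Loop size runs from the upstream to the downstream bin of the highest pixel; a kept loop's partner was the nearest match. Named regions followed a rule: the strongest or longest of each class, all lost loops since they numbered at most 12, and the chromosomes at the extremes. The members, lists and rule were chosen with earlier results of these data known. No p-value was computed. Alternatives covered distance, nesting, peak strength, asynchronous peaks, anchor width and list length. Genes and sequences were not used here, since the reference tables at hand are for GRCm38.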

Additional observations from a re-analysis of the deposited data

How the results depend on the processing

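No paired analysis was possible because replicates are pooled in each list, and for the same reason no replicate could be left out. Of 50 alternatives, 15 of them chosen after seeing the data, 28 stayed within the interval of the reported value. Matching within 10 kb or 40 kb gave 73.3% and 57.7% for ana/telophase boundaries gained and 53.2% and 31.6% for pro-metaphase boundaries lost; with outermost domains alone these were 68.4% and 53.9%. The shares with CTCF and Rad21 of ana/telophase, for gained and kept boundaries, were 20.9% and 29.9% with peaks of a −log10 q of at least 5, 37.5% and 47.4% with asynchronous peaks, and, added later, 14.0% and 20.6% within 10 kb and 36.0% and 48.7% within 40 kb. Kept was above gained in each, and the grid gave 8.21%, 16.2%, 5.04% and 17.2%. Both proteins at both anchors of gained loops came to 33.9% with anchors widened by 10 kb on each side and 31.4% with asynchronous peaks; at gained stripe anchors these were 65.4% and 52.7%. With widened anchors, also added later, 44.0% of kept loops had neither protein. List length was varied for loops alone. With only the 84 ana/telophase loops of lowest p-value, chosen after seeing the data, 57.1% of pro-metaphase loops were kept, 45.2% of ana/telophase loops were gained, and 42.1% of those (16 of 38) had both proteins at both anchors. Every stripe was at least 100 kb long, so that limit changed nothing.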
